A study of Mus musculus with 8 samples.

Results

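The matrix metalloproteinases (MMPs), the ADAMTS proteases and the tissue inhibitors of metalloproteinases (TIMPs) were followed in RNA from whole lungs of mice with K-ras-driven tumors. They were taken as every protein-coding gene of the count table whose symbol is Mmp, Adamts or Timp followed by a number, which gave 45 of the 54532 genes. Of these, 35 had at least 10 counts in at least 4 of the 8 libraries and are described below by their values, and the other 10 stayed under that minimum.

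Both groups were CC-LR mice, which are C57BL/6 background mice that carry a Cre-activated K-ras G12D allele together with Cre recombinase at the club cell secretory protein locus, so that the mutant K-ras was expressed in lung epithelium in control and treated animals alike. The study compared 4 Control mice with 4 mice given TTI-101, a small-molecule inhibitor of the transcription factor STAT3, and all lungs were taken at 14 weeks of age, after 4 weeks of treatment in the TTI-101 group. What the Control mice received, and the route and dose used for the sequenced mice, are not stated for these samples. Each library came from 1 whole lung, so that tumor, airway, alveoli and vessels were sequenced together. In the study, lungs for RNA were lavaged with PBS, perfused with PBS after blood was drawn, and then frozen. Only airspace and blood cells that remained after this were sequenced with the tissue. Mice of both sexes were used in the study without a sex being given per library.

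MMPs are zinc-dependent proteases that cut collagens, elastin, other matrix proteins, growth factors and chemokines. Most are secreted as inactive zymogens, and others are held at the cell surface by a transmembrane segment or a lipid anchor. ADAMTS proteases are secreted, bind matrix through thrombospondin repeats, and include the proteoglycanases that cut aggrecan and versican, the N-propeptidases that trim procollagens, and Adamts13, which cuts von Willebrand factor. TIMPs bind the active site of these enzymes and block it, and Timp3 is the family member that stays bound to matrix and also inhibits several ADAMTS enzymes. In lung these proteins are known for remodelling of the alveolar wall and airway and for roles in emphysema, fibrosis and tumor invasion.

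A cluster of MMP genes on chromosome 9 held several of the inflammatory members, and their promoters are shown because AP-1 is the factor best known to act on them while STAT3 is the target of the drug. Within 7272514 to 7699585 of chromosome 9, the table placed 9 Mmp genes, of which Mmp13, Mmp12, Mmp3 and Mmp8 passed the count minimum and Mmp1b, Mmp10, Mmp27, Mmp20 and Mmp7 did not. RefSeq promoter windows on build GRCm38.p6, from 250 bases before to 50 bases after a transcript start, were available for 23 of the 35 genes. Mmp2 and Mmp9 were among the 12 without a window. On both strands, the AP-1 letters TGANTCA occurred in the windows of Mmp3, Mmp12 and Mmp13 among the 23 genes. Of all 27025 genes with a window, 8.97% had these letters, as did 7.81% of all 32851 windows. The STAT letters TTCNNNGAA occurred for Mmp23 alone among the 23 genes, against 9.55% of all genes with a window and 8.30% of all windows. Mmp8 was among the 23 genes and had neither match. The windows lie at chr9:7445572-7445871 for Mmp3, chr9:7347124-7347423 for Mmp12 and chr9:7272264-7272563 for Mmp13, all on the plus strand, and at chr4:155653241-155653540 on the minus strand for Mmp23. They are written 5′ to 3′ with the match in capitals:
Mmp3: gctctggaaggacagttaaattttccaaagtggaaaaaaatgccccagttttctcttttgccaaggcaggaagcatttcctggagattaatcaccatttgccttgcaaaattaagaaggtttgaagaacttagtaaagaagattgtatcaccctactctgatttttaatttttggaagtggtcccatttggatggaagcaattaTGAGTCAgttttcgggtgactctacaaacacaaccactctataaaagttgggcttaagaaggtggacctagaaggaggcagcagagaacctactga
Mmp12: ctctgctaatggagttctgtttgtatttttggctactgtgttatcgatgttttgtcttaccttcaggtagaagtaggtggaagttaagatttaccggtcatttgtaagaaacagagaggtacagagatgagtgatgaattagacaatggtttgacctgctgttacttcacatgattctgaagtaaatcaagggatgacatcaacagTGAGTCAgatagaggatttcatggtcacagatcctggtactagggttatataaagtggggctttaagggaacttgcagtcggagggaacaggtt
Mmp13: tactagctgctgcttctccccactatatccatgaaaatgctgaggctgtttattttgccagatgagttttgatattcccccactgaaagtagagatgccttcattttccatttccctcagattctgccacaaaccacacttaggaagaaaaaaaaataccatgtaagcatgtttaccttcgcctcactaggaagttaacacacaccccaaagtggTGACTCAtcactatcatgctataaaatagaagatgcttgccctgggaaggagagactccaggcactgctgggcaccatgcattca
Mmp23: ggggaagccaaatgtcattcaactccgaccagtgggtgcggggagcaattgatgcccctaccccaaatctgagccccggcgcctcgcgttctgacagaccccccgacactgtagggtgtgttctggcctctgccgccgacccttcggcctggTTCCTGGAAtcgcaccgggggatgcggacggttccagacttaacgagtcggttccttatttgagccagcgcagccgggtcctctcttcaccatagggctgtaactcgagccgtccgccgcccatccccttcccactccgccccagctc
The matches of Mmp3, Mmp12 and Mmp13 began 46, 44 and 35 bases before the start, and that of Mmp23 began 98 bases before the start of the window printed. RefSeq gives Mmp23 a further start, with a window at chr4:155653335-155653634, from which the same match began 4 bases before. A match describes the letters of the window and is neither a binding site nor a cause, and a window without a match shows only that these letters are absent from it.

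The 8 libraries held 16075855 to 26873509 counts, with both groups spanning nearly the same range, and levels are given as CPM, in which TMM-normalized library sizes put all libraries on a common scale. The lung markers were at high levels in all libraries, with a summed CPM of 27684 to 63630 for 5 alveolar type 2 genes and of 13300 to 37837 for 4 club cell genes. The library of Control mouse 4 stood apart from the rest. It had 5.56% mitochondrial counts against 2.01% to 2.85% in the other 7, and on the first principal component, which held 45.2% of the variance, it scored 101 against -39.3 to 17.9 elsewhere. Across the protease and inhibitor genes it had the lowest CPM of the 8 libraries for 17 of 35 (48.6%), against 28.7% of all genes tested. In that library the summed CPM of 6 endothelial markers was 975, against 2409 to 2656 in the other Control libraries and 2197 to 3798 in treated ones. Its sum over 8 fibroblast markers was 1343, against 1822 to 2845 and 2394 to 3526, and its sum over 5 alveolar type 2 markers was 63630, against 36200 to 43096 and 27684 to 51258. None of these markers was at 0 in every library, and their part in the protease values was not tested. In whole-lung RNA, fewer cells of a type and less RNA per cell cannot be told apart.

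Per length of transcript, the inhibitors were the most abundant of these RNAs, and Timp2 led. The 4 Timp genes together held 42.3% of the summed CPM per kilobase of all 35 genes on average, with 33.8% to 48.7% in single libraries. The 9 secreted MMP genes held 20.4%, the 5 membrane-bound MMP genes 16.7%, the 6 other ADAMTS genes 10.1%, the 7 proteoglycanase genes 8.54% and the 3 procollagen N-propeptidase genes 1.93%. Timp2 averaged 167 CPM per kilobase over the 8 libraries. Next came Mmp15 with a mean of 53.9, Mmp2 with 48.3 and Adamts10 with 46.4 CPM per kilobase, and their ranges over single libraries overlapped (38.8 to 75.5, 36.9 to 62.0 and 22 to 57.6). The value for Adamts10 depends on the length used, since the deposited table gives 5453 bases and the exons of GENCODE M21 cover 8254, on which it would average 30.7. In all, 10 genes averaged at least 10 CPM per kilobase, 13 between 1 and 10, and 12 below 1.

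**Figure D1:**
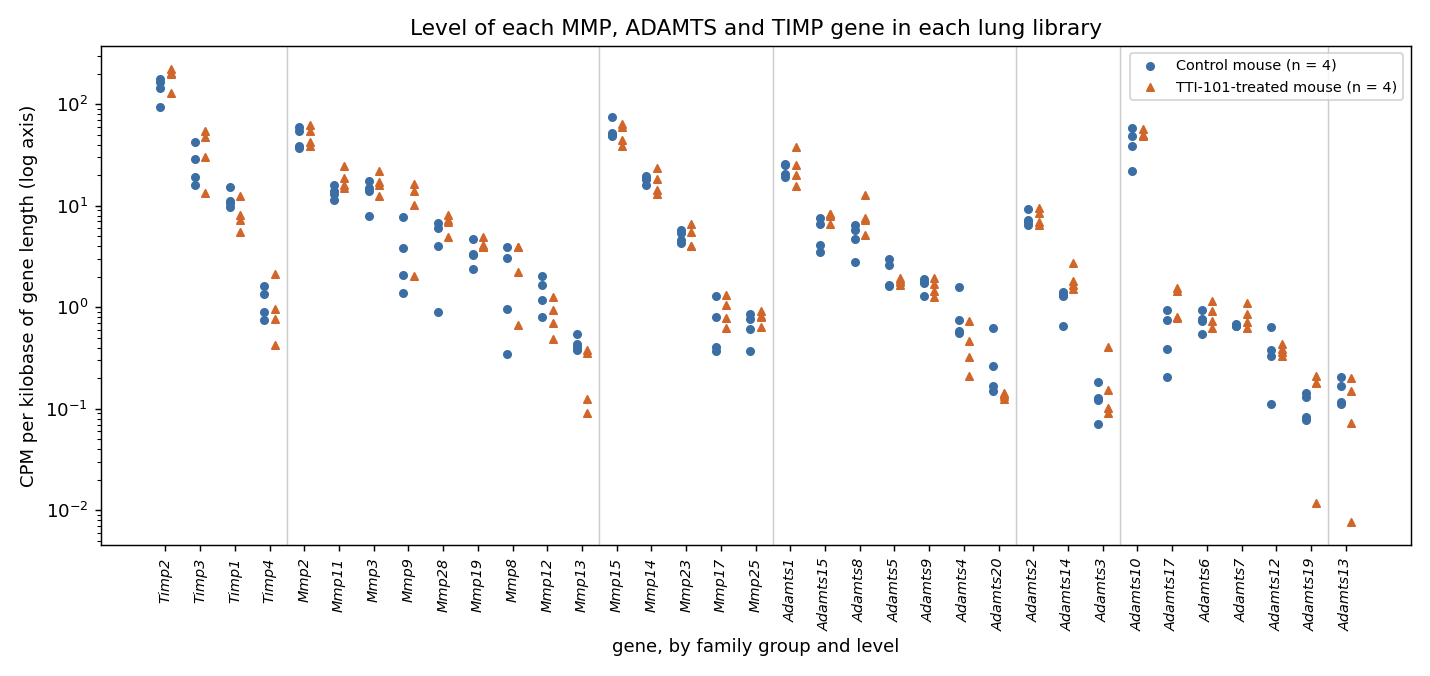
Level of each of the 35 genes in each library, as CPM per kilobase of gene length on a log axis. Circles are the 4 Control mice, triangles the 4 TTI-101-treated mice, and vertical lines separate the TIMPs, secreted MMPs, membrane-bound MMPs, proteoglycanases, procollagen N-propeptidases, other ADAMTS genes and Adamts13, in that order from the left. Timp2 averaged 167 CPM per kilobase and Adamts13 averaged 0.130.

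No MMP, ADAMTS or TIMP gene passed the test between TTI-101-treated and Control lungs. By edgeR's quasi-likelihood test, with p-values adjusted by Benjamini-Hochberg across the 17138 genes in the fit, 0 of the 35 genes had an adjusted p under 0.05, where the table as a whole gave 0%, and the lowest adjusted p among them was 0.657. DESeq2 and limma-voom also gave 0 of 35, where they gave 0.0126% and 0% of all genes they tested. At an unadjusted p under 0.05, edgeR gave 6 of 35, against 6.61% of all genes tested. Of these, Adamts14, Mmp11, Adamts8, Mmp9 and Adamts17 had higher values in treated lungs (5 of 35, against 3.02%), and Adamts20 had lower values (1 of 35, against 3.58%). DESeq2 gave 9 of 35 against 5.32% of the 31769 genes it tested, 6 of them higher against 2.63% and 3 lower against 2.69%. With limma-voom it was 8 of 35 against 6.41%, 5 higher against 3.53% and 3 lower against 2.88%. DESeq2 was run without the count filter of edgeR and limma-voom. Its shares therefore include genes of very few counts, and 9 of 35 is not set against a like set of genes. Groups did not overlap for 2 of the 35 genes, against 2.96% of all genes tested. Adamts14, Mmp11, Adamts8 and Adamts17 were under 0.05 by all 3 tools. The count of 6 rested on single mice, since leaving out Control mouse 4 brought it to 0, leaving out TTI-101 mouse 3 or TTI-101 mouse 4 brought it to 1, leaving out TTI-101 mouse 1 to 3, and leaving out TTI-101 mouse 2 to 9. For Control mouse 4 and TTI-101 mice 1, 2 and 3, this was not particular to these genes. Over all genes tested, the count also fell without Control mouse 4, TTI-101 mouse 3 or TTI-101 mouse 1. It rose without TTI-101 mouse 2, and these counts are given further below. The count over all genes without TTI-101 mouse 4 is not reported here. That mouse had the highest CPM of the 8 libraries for 10 of the 35 genes (28.6%), against 12.9% of all genes tested. The log2 fold change of TTI-101 over Control was above 0 for 24 of the 35 genes, against 50.6% of all genes tested, and its median was 0.27 against 0.00 for all genes tested. Standard errors ran from 0.17 to 0.69 with a median of 0.29, and 16 of the 35 estimates were smaller than their own standard error.

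**Figure D2:**
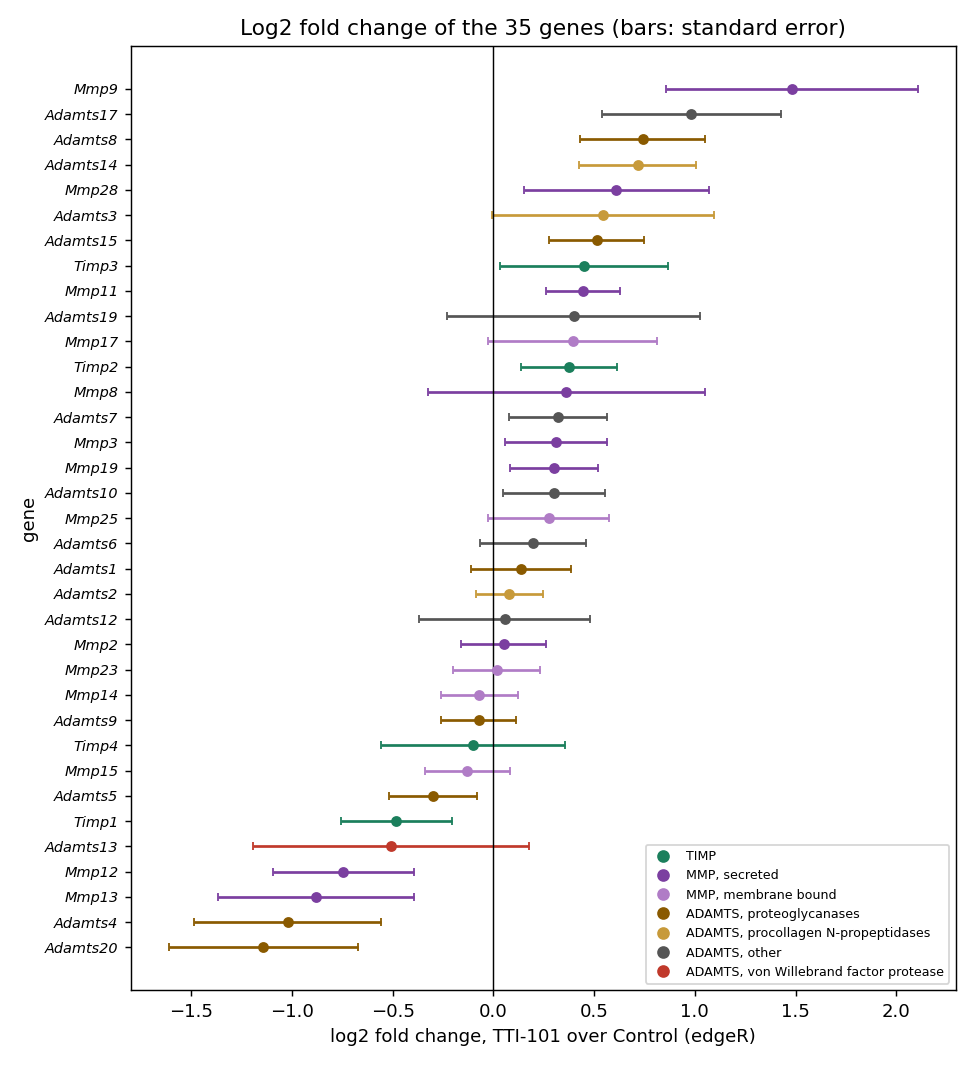
Log2 fold change of TTI-101 over Control for the 35 genes, from edgeR, ordered by size and coloured by family. Points are estimates and bars are 1 standard error. They run from -1.14 for Adamts20 to 1.48 for Mmp9, and no adjusted p was under 0.05.

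Among the inhibitors, Timp2 and Timp3 had higher and Timp1 and Timp4 lower mean CPM in treated lungs, with overlapping groups for all 4. Timp2 (chromosome 11, 118301069 to 118355740), which inhibits MMPs and also takes part in activating pro-Mmp2, was at 695, 638, 563 and 365 CPM in Control mice 1 to 4 and at 787, 504, 873 and 767 CPM in TTI-101 mice 1 to 4. Only TTI-101 mouse 2 of the treated group lay within the Control range. The means were 565 ± 144 and 733 ± 159 CPM (SD, n = 4), and the log2 fold change was 0.37 with a standard error of 0.24 (adjusted p = 0.667, edgeR). Leaving out Control mouse 4 brought the log2 fold change of Timp2 to 0.22, and leaving out TTI-101 mouse 2 to 0.53.

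Timp1 (chromosome X, 20870166 to 20874735), a secreted inhibitor whose gene is known to respond to inflammatory cytokines and to STAT3, was at 9.83, 8.61, 13.5 and 9.40 CPM in Control and at 4.94, 11.2, 6.39 and 7.18 CPM in treated mice. Treated mice 1, 3 and 4 lay below every Control mouse, and treated mouse 2 lay above 3 of them. The log2 fold change was -0.48 with a standard error of 0.28 (adjusted p = 0.657, edgeR), and -0.74 without TTI-101 mouse 2. Timp3 (chromosome 10, 86300372 to 86349506) ranged from 131 to 345 CPM in Control and from 110 to 443 CPM in treated mice, with 345, 235, 158 and 131 in Control mice 1 to 4 and 389, 110, 247 and 443 in treated mice 1 to 4. The treated group held both the highest and the lowest of the 8 values, and the log2 fold change was 0.45 with a standard error of 0.42 (adjusted p = 0.747, edgeR). Timp4 (chromosome 6, 115241892 to 115252205) was at 4.37, 9.56, 7.99 and 5.24 CPM in Control and at 2.49, 12.7, 5.67 and 4.56 CPM in treated mice. Its highest and lowest values were again both in the treated group, and its log2 fold change was -0.10 with a standard error of 0.46. Timp1, Timp3 and Timp4 lie inside Syn1, Syn3 and Syn2 on the opposite strand, and how the counting treated strand is not given in the sources used here. Syn2 had 95 to 347 counts per library against 66 to 211 for Timp4.

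The balance of inhibitor to protease RNA did not separate the groups. The TIMP share of the summed CPM per kilobase was 40.8% ± 4.85 in Control and 43.9% ± 6.85 in treated lungs (SD, n = 4), a difference of 3.06 percentage points. The summed level of all 35 genes was 505, 495, 433 and 354 CPM per kilobase in Control and 526, 465, 581 and 544 in treated mice. Control mouse 4 was the lowest, Control mouse 3 was also below every treated mouse, and Control mice 1 and 2 lay within the treated range.

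Among the 9 secreted MMPs, 7 had a log2 fold change above 0, and Mmp9 and Mmp11 had the lowest unadjusted p on the higher side. Mmp9 (chromosome 2, 164940780 to 164955850), the gelatinase stored in neutrophil granules and also made by macrophages, was at 27.6, 7.41, 13.7 and 4.92 CPM in Control and at 36.4, 7.27, 57.9 and 49.7 CPM in treated mice. Treated mice 1, 3 and 4 exceeded every Control mouse, whereas treated mouse 2 was below Control mice 1, 2 and 3. The means were 13.4 ± 10.2 and 37.8 ± 22.2 CPM (SD, n = 4), and the log2 fold change of 1.48 with a standard error of 0.62 was the largest of the 35 genes (adjusted p = 0.657, edgeR). A two-sided exact permutation test over the 70 assignments of mice to groups gave p = 0.171, and 0.0286 is the smallest p that this test can give with 4 against 4 mice. The estimate ran from 1.21 without TTI-101 mouse 3 to 2.12 without Control mouse 1. Mmp8 (chromosome 9, 7558456 to 7568485), the neutrophil collagenase, was at 9.47, 2.33, 7.38 and 0.831 CPM in Control and at 9.53, 1.62, 5.34 and 9.43 CPM in treated mice. These ranges nearly coincided, and the log2 fold change was 0.36 with a standard error of 0.69.

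Neutrophil markers were low in the libraries where both genes were low, and the order of the other libraries differed. The summed CPM of 6 neutrophil markers was 279, 51.6, 216 and 35.1 in Control and 310, 60.3, 246 and 426 in treated mice, and the 5 of them that were tested had higher estimates in treated lungs. The libraries with the lowest sums, Control mice 2 and 4 and TTI-101 mouse 2, were also the 3 lowest for Mmp9 and for Mmp8. Among the other libraries, TTI-101 mouse 3 had the highest Mmp9, 57.9 CPM, at a marker sum of 246 CPM. Control mouse 1 had 27.6 CPM of Mmp9 at a sum of 279 CPM. Ly6g, a defining surface marker, was near 0 in every library, at 0.0598 to 0.716 CPM. For alveolar macrophages, 6 of 6 markers had higher estimates in treated lungs, with sums of 286 to 989 CPM in Control and 478 to 689 CPM in treated mice. Most of these sums was Chil3, at 233 to 840 CPM in Control and 353 to 521 CPM in treated mice. The part of either cell type, and of the lavage and perfusion of the lungs, in the Mmp9 and Mmp8 values was not tested.

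**Figure D3:**
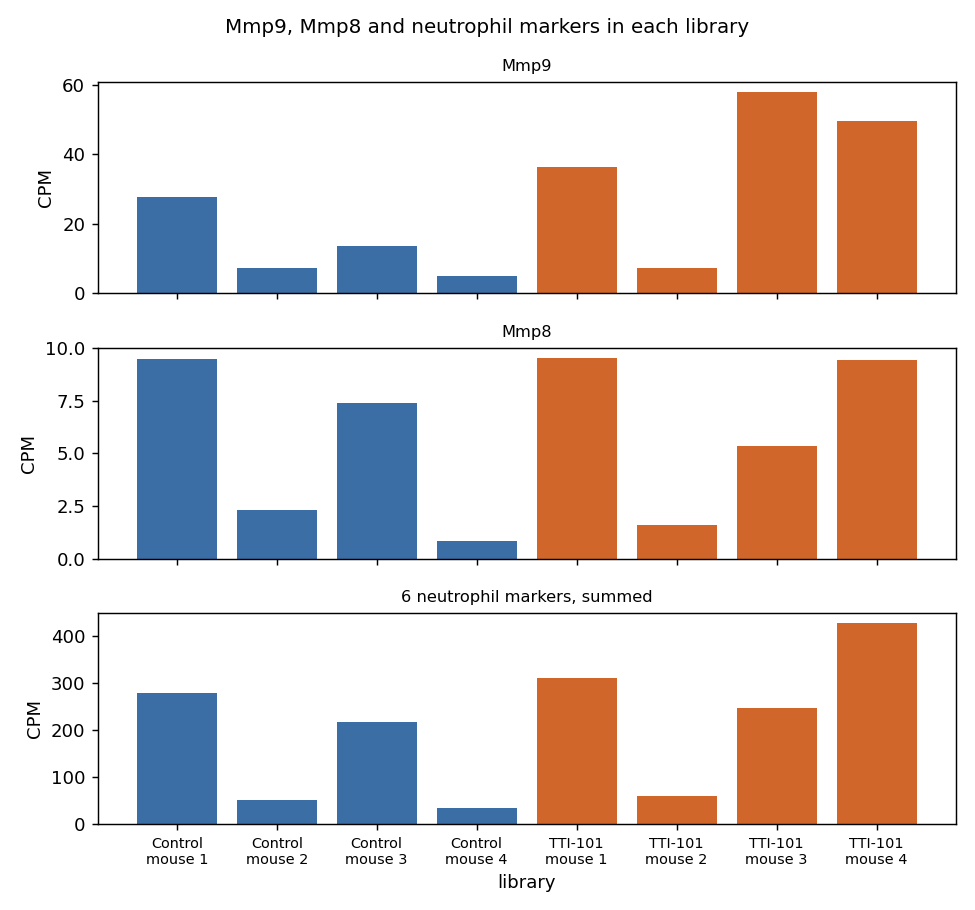
CPM of Mmp9 (top), of Mmp8 (middle) and summed over 6 neutrophil markers (bottom) in each of the 8 libraries. Blue bars are Control and orange bars TTI-101-treated mice, 1 bar per mouse, with each axis starting at 0. Control mice 2 and 4 and TTI-101 mouse 2 had the lowest marker sums (51.6, 35.1 and 60.3 CPM) and the lowest Mmp9 (7.41, 4.92 and 7.27 CPM).

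Mmp11 (chromosome 10, 75923222 to 75936496), or stromelysin 3, which is made by fibroblasts around carcinomas, was at 44.7, 36.2, 38.4 and 31.7 CPM in Control and at 44.6, 52.1, 67.7 and 41.1 CPM in treated mice. Treated mice 2 and 3 lay above the Control range and treated mice 1 and 4 within it. The log2 fold change was 0.44 with a standard error of 0.18 (adjusted p = 0.657, edgeR), and 0.28 without TTI-101 mouse 3. It overlaps Chchd10 on the opposite strand, which had 1033 to 2440 counts per library.

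The macrophage elastase Mmp12 and the collagenase Mmp13, neighbours on chromosome 9, were the secreted MMPs with lower means in treated lungs. Mmp12 (7344381 to 7369499), known from alveolar macrophages in emphysema, was at 14.6, 5.74, 8.60 and 12 CPM in Control and at 5.01, 9.07, 3.56 and 6.87 CPM in treated mice. The groups overlapped, since Control mouse 2 was below treated mice 2 and 4, and the log2 fold change was -0.74 with a standard error of 0.35 (adjusted p = 0.657, edgeR). Without any 1 mouse it stayed between -0.98 and -0.52. The alveolar macrophage markers given above had estimates in the other direction, and their part in the Mmp12 values was not tested. Mmp13 (7272514 to 7283331) was low throughout, at 1.47, 1.02, 1.17 and 1.09 CPM in Control and at 0.942, 1.02, 0.334 and 0.243 CPM in treated mice, which is 4 to 40 counts a library. TTI-101 mice 3 and 4 were the low ones, and the log2 fold change was -0.88 with a standard error of 0.48. Mmp3 (7445822 to 7455975), or stromelysin 1, shares the AP-1 letters shown above with both genes and was at 25.2, 31.7, 27 and 14.1 CPM in Control and at 39.5, 28.9, 30.5 and 22.7 CPM in treated mice. It had an estimate in the other direction, 0.31 with a standard error of 0.25, and overlapping groups.

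Mmp2 (chromosome 8, 92827291 to 92853420), the gelatinase of fibroblasts, was at 185, 199, 132 and 124 CPM in Control and at 141, 209, 183 and 130 CPM in treated mice. The groups covered nearly the same range, and the log2 fold change was 0.05 with a standard error of 0.21. The other secreted MMPs were Mmp19, with 8.44 to 16.7 CPM in Control and 14.0 to 17.4 CPM in treated mice, and Mmp28, with 3.52 to 26.1 and 18.9 to 31.3 CPM. For both, Control mouse 4 was the lowest library.

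None of the 5 membrane-bound MMPs had an unadjusted p under 0.05, and the median of their log2 fold changes was 0.02. Mmp14 (chromosome 14, 54431612 to 54445364), the membrane collagenase that activates pro-Mmp2, was at 95.5, 118, 110 and 109 CPM in Control and at 77.6, 142, 108 and 85.2 CPM in treated mice. Both the highest and the lowest value were in treated mice, and the log2 fold change was -0.07 with a standard error of 0.19 (adjusted p = 0.925, edgeR). Mmp15 (chromosome 8, 95352268 to 95375080), a transmembrane MMP, was at 260, 269, 281 and 408 CPM in Control and at 210, 345, 320 and 238 CPM in treated mice. Control mouse 4 was the highest, and leaving it out moved the log2 fold change from -0.13 (standard error 0.21) to 0.05. Mmp23, whose promoter held the STAT letters, was at 10.7, 12.5, 13.4 and 10.0 CPM in Control and at 9.42, 12.8, 15.6 and 9.49 CPM in treated mice. Its groups overlapped almost fully, with a log2 fold change of 0.02 and a standard error of 0.22. Mmp17 and Mmp25, the lipid-anchored MMPs, had log2 fold changes of 0.39 and 0.27 with standard errors of 0.42 and 0.30.

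The 7 proteoglycanase genes went both ways, with a median log2 fold change of -0.07. Adamts20 (chromosome 15, 94270163 to 94465418), a protease of versican known from pigment cell development, was at 1.36, 2.39, 1.5 and 5.63 CPM in Control and at 1.28, 1.26, 1.11 and 1.22 CPM in treated mice. It was the single gene of the 35 whose treated values all lay below the Control values, against 1.43% of all genes tested. The means were 2.72 ± 1.99 and 1.22 ± 0.0755 CPM (SD, n = 4), the log2 fold change was -1.14 with a standard error of 0.47 (adjusted p = 0.657, edgeR), and the exact permutation test gave its smallest p, 0.0286. Control mouse 4 decided the size of the difference, which was -0.50 without it. Adamts4 (chromosome 1, 171250421 to 171260637), an aggrecanase induced by inflammatory cytokines, was at 3.60, 2.69, 2.83 and 7.68 CPM in Control and at 1.02, 3.48, 1.56 and 2.25 CPM in treated mice. Again Control mouse 4 was the highest, and the log2 fold change was -1.02 with a standard error of 0.46 (adjusted p = 0.657, edgeR) and -0.55 without that mouse.

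Adamts8 and Adamts15, whose genes lie 20.1 kb apart on chromosome 9, had higher means in treated lungs, as did Adamts1, described below, among the 7 proteoglycanases. Adamts8 (30942562 to 30963838), known for its expression in lung and as an inhibitor of blood vessel growth, was at 21.7, 29.9, 26.5 and 12.9 CPM in Control and at 33.7, 23.8, 59.4 and 35.2 CPM in treated mice. Treated mice 1, 3 and 4 lay above the Control range, and the log2 fold change was 0.74 with a standard error of 0.31 (adjusted p = 0.657, edgeR). It was 0.44 without TTI-101 mouse 3, the highest library. Adamts15 (30899155 to 30922452), a versican-cutting protease, was at 67.8, 78.5, 42.9 and 35.9 CPM in Control and at 85.5, 86.4, 68.2 and 81.4 CPM in treated mice. The groups overlapped through treated mouse 3 alone, which was below Control mouse 2, and the log2 fold change was 0.51 with a standard error of 0.23 (adjusted p = 0.657, edgeR) and 0.36 without Control mouse 4. Endothelial markers were higher in 6 of 6 estimates as well, with sums of 975 to 2656 CPM in Control and 2197 to 3798 CPM in treated mice, and their part in the Adamts8 and Adamts15 values was not tested.

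Adamts1 and Adamts5, a neighbouring pair 53.1 kb apart on chromosome 16, differed less between groups. Adamts1 (85793827 to 85803113), the most abundant ADAMTS proteoglycanase RNA here at 23.7 CPM per kilobase, was at 136, 109, 101 and 133 CPM in Control and at 134, 83.1, 107 and 202 CPM in treated mice. The treated group held both extremes, and the log2 fold change was 0.14 with a standard error of 0.25. Adamts5 (85856173 to 85901828), the main aggrecanase of mouse cartilage, was at 17.9, 28.4, 17.6 and 32.3 CPM in Control and at 20.0, 21, 17.8 and 19.2 CPM in treated mice. All treated values lay between Control values, and the log2 fold change was -0.30 with a standard error of 0.22. Adamts9 (chromosome 6, 92772699 to 92943492) was at 26.1, 26.5, 19.6 and 28.7 CPM in Control and at 25.7, 19.0, 21.7 and 29.4 CPM in treated mice. These values gave a log2 fold change of -0.07 with a standard error of 0.18.

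The 3 procollagen N-propeptidases all had higher estimates in treated lungs, by a median log2 fold change of 0.54. Adamts14 (chromosome 10, 61197112 to 61273438), which trims the amino end of fibrillar procollagens, was at 7.37, 6.93, 6.66 and 3.39 CPM in Control and at 9.50, 8.71, 7.84 and 14.1 CPM in treated mice. It was the single gene of the 35 whose treated values all exceeded the Control values, against 1.53% of all genes tested, and the gap between the groups ran from 7.37 to 7.84 CPM. The means were 6.09 ± 1.82 and 10.0 ± 2.80 CPM (SD, n = 4), the log2 fold change was 0.72 with a standard error of 0.29 (adjusted p = 0.657, edgeR), and the exact permutation test gave its smallest p, 0.0286. Without any 1 mouse the estimate stayed between 0.51 and 0.82. Adamts2 (chromosome 11, 50602084 to 50807573), the main procollagen I N-propeptidase, was more abundant and was at 66.9, 85.7, 65.2 and 59.9 CPM in Control and at 60.0, 79.9, 88.6 and 65.2 CPM in treated mice. The groups overlapped over most of their range, and the log2 fold change was 0.08 with a standard error of 0.17, the smallest error of the 35 genes. Adamts3 had 6 to 36 counts a library and a log2 fold change of 0.54 with a standard error of 0.55. The 8 fibroblast markers also had higher estimates in treated lungs, and their part in the Adamts14 values was not tested.

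The 6 other ADAMTS genes had estimates above 0, and Adamts17 had the largest. Adamts17 (chromosome 7, 66839735 to 67153171), a microfibril-associated ADAMTS, was at 7.34, 5.86, 3.00 and 1.6 CPM in Control and at 6.10, 6.24, 11.1 and 12 CPM in treated mice. Treated mice 3 and 4 lay above every Control mouse, and treated mice 1 and 2 lay between Control mice 1 and 2. The log2 fold change was 0.98 with a standard error of 0.44 (adjusted p = 0.657, edgeR), and it ran from 0.72 without Control mouse 4 to 1.34 without Control mouse 1. Adamts10 (chromosome 17, 33524204 to 33553782), which binds fibrillin, was at 211, 314, 262 and 120 CPM in Control and at 267, 309, 268 and 274 CPM in treated mice. Control mouse 4 was the low library, and the log2 fold change was 0.30 with a standard error of 0.25. Adamts6, Adamts7, Adamts12 and Adamts19 had log2 fold changes of 0.20, 0.32, 0.06 and 0.40, none over 1.5 times its standard error. Adamts7 overlaps Tbc1d2b, at 1496 to 2839 counts per library, on the opposite strand. Adamts13 (chromosome 2, 26973416 to 27009628) is made mainly by stellate cells of the liver, and in lung it had 15, 17, 15 and 9 counts in Control and 1, 6, 18 and 12 counts in treated mice. Its log2 fold change of -0.51 had a standard error of 0.69.

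**Figure D4:**
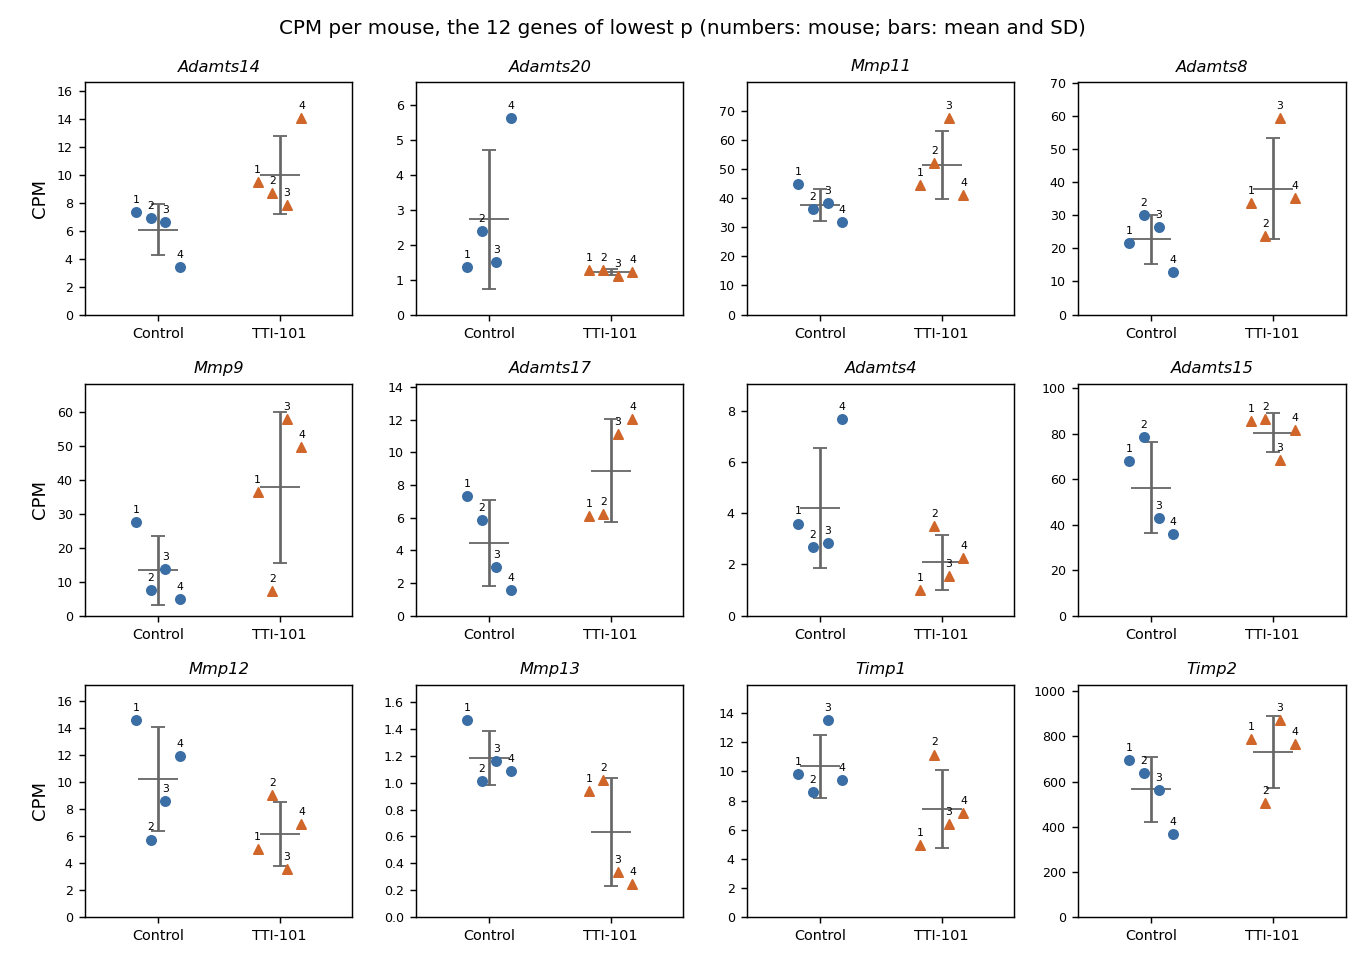
CPM in each mouse for the 12 genes with the lowest unadjusted edgeR p. Circles are Control and triangles TTI-101-treated mice, the number beside a point is the mouse, horizontal lines are group means and bars are 1 SD. The groups are separate for Adamts14 and Adamts20, and Control mouse 4 is the highest point for Adamts20 (5.63 CPM) and Adamts4 (7.68 CPM).

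**Figure D5:**
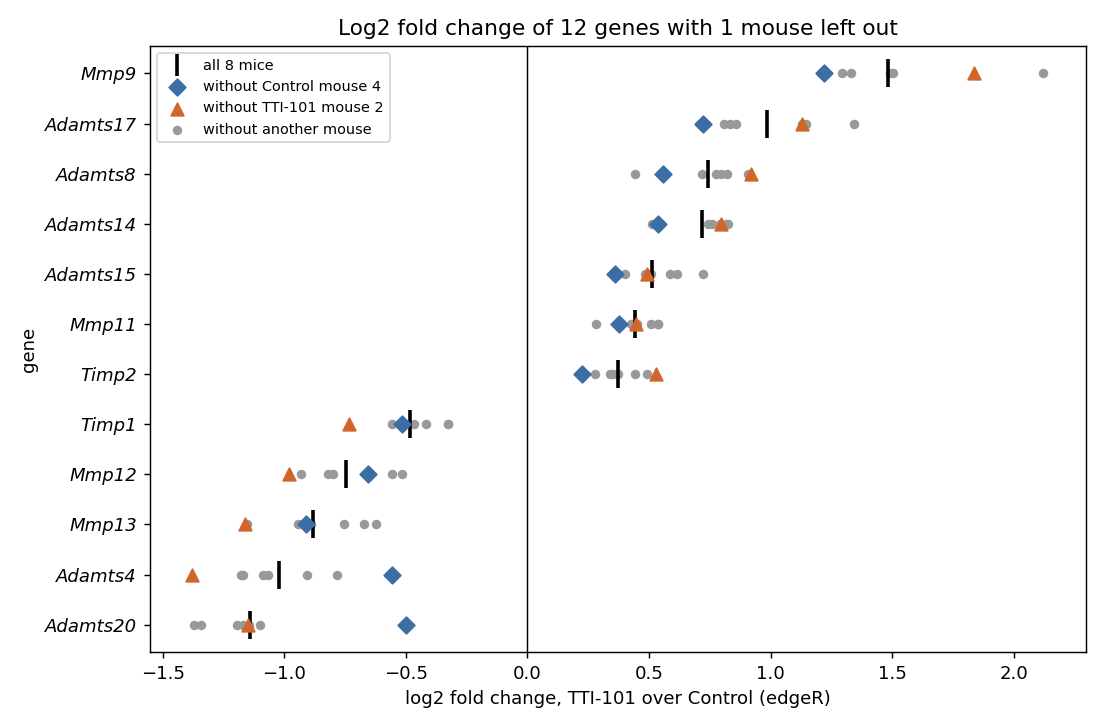
Log2 fold change of TTI-101 over Control for the same 12 genes with all 8 mice (vertical bar) and with each mouse left out in turn. Diamonds are the estimates without Control mouse 4, triangles those without TTI-101 mouse 2 and grey points those without another mouse. No estimate of these genes crosses 0, and without Control mouse 4 Adamts20 moves from -1.14 to -0.50.

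The 10 genes under the count minimum were Mmp1b, Mmp7, Mmp10, Mmp16, Mmp20, Mmp21, Mmp24, Mmp27, Adamts16 and Adamts18. The closest to it were Mmp16 with 5 to 14 counts and Mmp27 with 1 to 18 counts, each with at least 10 counts in 3 libraries. Just inside it were Adamts13 and Adamts19 with 5 such libraries, Mmp13 with 6 and Adamts3 with 7. The remaining 8 genes had at most 6 counts in any library. Mmp7, or matrilysin, the epithelial MMP known from human lung fibrosis and carcinoma, had 0 to 2 counts per library, and Mmp1b had 0 in all 8.

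Genes that act with these proteases were looked at in the same fit, as lists of activators, inhibitors and receptors, of ADAMTS-like proteins with papilin, and of substrates other than collagens. Of the 32 genes tested in the 3 lists, 0 had an adjusted p under 0.05 with edgeR, against 0% of all genes tested. At an unadjusted p under 0.05 there were 6 of 32, against 6.61%, with 4 higher in treated lungs, against 3.02%, and 2 lower, against 3.58%. The count of 6 ran from 1 without TTI-101 mouse 3 to 10 without Control mouse 1. Over all genes tested, the count also fell without that treated mouse and rose without that Control mouse. Among 13 activators, inhibitors and receptors, Itgb3, Lrp1 and Plat were on the higher side. Itgb3, the beta chain of an integrin that binds vitronectin and can dock Mmp2, was at 27.3, 26.8, 27.6 and 21.1 CPM in Control and at 39.5, 27.3, 38.1 and 38.3 CPM in treated mice, a log2 fold change of 0.48 with a standard error of 0.16. Treated mice 1, 3 and 4 were above all Control mice. Lrp1, the endocytic receptor that clears many MMPs and ADAMTS proteases, was at 436, 390, 323 and 213 CPM in Control and at 450, 426, 628 and 644 CPM in treated mice, a log2 fold change of 0.66 with a standard error of 0.24. Plat, the tissue plasminogen activator, had a log2 fold change of 0.34 with a standard error of 0.14. Plau, the urokinase, and its receptor Plaur had log2 fold changes of 0.02 and 0.21. Reck, a membrane-anchored MMP inhibitor, was at 80.5, 55.8, 39.4 and 18.2 CPM in Control and at 95.5, 47.3, 86.1 and 97.4 CPM in treated mice. Its log2 fold change was 0.75 with a standard error of 0.39, and Control mouse 4 was again the lowest.

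Of the 7 ADAMTS-like genes, 6 had a log2 fold change above 0, and the median of the 7 was 0.42. Thsd4, which promotes fibrillin assembly, was the only 1 below 0 and the only 1 with an unadjusted edgeR p under 0.05. It was at 62.5, 64.7, 56.8 and 148 CPM in Control and at 49.1, 59.6, 33.2 and 53.9 CPM in treated mice. Its log2 fold change of -0.76 with a standard error of 0.31 became -0.31 without Control mouse 4, the library with 148 CPM. Among 12 substrates, Vcan, the versican cut by the proteoglycanases, was at 14.4, 14.8, 18.3 and 14.7 CPM in Control and at 9.65, 8.23, 8.56 and 15.2 CPM in treated mice. Treated mice 1 to 3 were below every Control mouse, treated mouse 4 was within the Control range, and the log2 fold change was -0.58 with a standard error of 0.23. Vwf, the substrate of Adamts13 made by endothelium, was at 414, 416, 328 and 185 CPM in Control and at 440, 423, 565 and 599 CPM in treated mice. These groups did not overlap, against 1.53% of all genes tested with separate and higher treated values. The log2 fold change was 0.59 with a standard error of 0.25. The endothelial markers summed to 2524, 2656, 2409 and 975 CPM in Control mice 1 to 4. In TTI-101 mice 1 to 4 they summed to 3186, 2197, 3798 and 3670 CPM, so that treated mouse 2 was below Control mice 1 to 3. Their part in the Vwf values was not tested.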

How the data were processed

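Poly(A) RNA of snap-frozen whole lungs was sequenced as 1 stranded library per mouse, for 4 Control and 4 TTI-101 animals. The deposited table holds whole-number counts per gene, made by the authors without normalization. The submitters' processing notes name STAR, DESeq2 and mm10, and the counting tool, its strand setting and the versions are not given in the sources used here. Of the 54532 genes, 53499 have the same identifier and position in GENCODE M21 (GRCm38). Libraries held 16075855 to 26873509 counts.

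The whole table was fitted in R 4.3.3 with edgeR 4.0.16. Genes were filtered with filterByExpr (minimum count 10, leaving 17138 genes), scaled by TMM, and tested by quasi-likelihood with robust dispersions. P-values were adjusted by Benjamini-Hochberg. The standard error given is the absolute log2 fold change divided by the square root of the F statistic of that test. DESeq2 1.42.0 and limma-voom (limma 3.58.1), other scalings, filters, a replicate block and leaving out each mouse were the alternatives. The fits were also run on simulated counts with the same dispersion for every gene and no outlying library. There edgeR recovered 181 of 200 changed genes with 4 false calls. That run does not measure the power for the genes reported here. CPM per kilobase used the deposited gene lengths. For single genes, mean log2 CPM (prior count 2) was also tested by exact permutation of the mice, two-sided. P-values of edgeR, DESeq2 and limma-voom set the difference between groups of 4 mice against the spread between mice, with information shared across genes. The permutation p places the observed difference among the 70 assignments of mice to groups.

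Values per library are given for genes with an unadjusted p under 0.05, the 8 of lowest p, the 2 of highest CPM per kilobase in each family group, the Timp genes and 14 well-known proteases (Mmp7 by its range), with ranges or estimates for the rest. Pathway genes are named at an unadjusted p under 0.05, along with Reck, Plau, Plaur and Vcan, and a further gene of that rule and an overlapping gene are not reported here. The genes and lists were chosen with earlier results of these data known.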

Additional observations from a re-analysis of the deposited data

Results flagged for a closer look

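In 3 of 70 groups of 4 mice, 1 library lay far from the other 3 for its gene, and chance gives about 3.5 such groups (1 in 20). The measure is the gap to the nearest mouse as a share of the group's range, against Dixon's 95% critical value. Adamts10 in TTI-101 mouse 2 had a gap of 0.835, at 309 CPM against 267 to 274 CPM in the other treated mice. Adamts19 in TTI-101 mouse 3 had a gap of 0.843, at 0.0556 CPM (1 count) against 0.83 to 0.973 CPM. Mmp15 in Control mouse 4 had a gap of 0.858, at 408 CPM against 260 to 281 CPM in the other Control mice.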

How the results depend on the processing

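With all 8 libraries, the count of the 35 genes at an unadjusted p under 0.05 was 6 in the reported fit and ran from 4 to 9 under the alternatives, and the count at an adjusted p under 0.05 was 0 under all of them. It ran from 0 without Control mouse 4 to 9 without TTI-101 mouse 2, the pathway count ran from 1 to 10 around 6, and the count of genes at a permutation p under 0.05 ran from 0 without TTI-101 mouse 1 to 4 around 2. Over all genes tested, 1132 had an unadjusted p under 0.05, 1849 without a filter, 2393 without Control mouse 1, 2498 without TTI-101 mouse 2, 711 without TTI-101 mouse 1, 531 without Control mouse 4 and 422 without TTI-101 mouse 3. With a replicate block the count was 4 of 35, all higher. The deviations of same-numbered mice correlated at 0.39, 0.08, 0.16 and 0.07, and those of differently numbered mice at -0.42 to 0.17. Control mouse 1 and TTI-101 mouse 1 also had the deepest libraries, with 26873509 and 25920509 counts. The pairing was not used in the reported fit, and whether same-numbered mice share a batch was not tested.

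The sign of the log2 fold change held under every alternative for 24 of the 35 genes. With limma-voom Adamts19 came to -0.054 and Mmp23 to -0.016, and with the replicate block Mmp23 came to -0.0046. With 1 mouse left out, it ran from -0.14 to 0.79 for Adamts3, -0.24 to 0.054 for Mmp15, -0.15 to 0.32 for Adamts1, -0.023 to 0.20 for Adamts2, -0.19 to 0.036 for Adamts9, -0.25 to 0.046 for Mmp14, -0.070 to 0.18 for Mmp2, -0.67 to 0.17 for Timp4, -0.24 to 0.48 for Adamts12 and -0.14 to 0.11 for Mmp23, and from -0.14 to 0.18 for Plau. The cause was not tested. With 4 mice a group, and 1 to 40 counts a library for genes such as Adamts13, Adamts19, Adamts3 and Mmp13, small differences were not detectable. Larger estimates did not pass either, since the 9 genes whose log2 fold change lay over 2 standard errors from 0 had no adjusted p under 0.05.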

Other observations

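Markers of ciliated, club and alveolar type 2 cells had lower estimates in treated lungs, and 4 of 5 alveolar type 1 markers had higher ones, none at an adjusted p under 0.05 with edgeR. The alveolar type 1 sums were 1864 to 2790 CPM in Control and 2602 to 3705 CPM in treated mice, and overlapped. For ciliated cells, 0 of 5 markers were higher, with sums of 205, 370, 376 and 665 CPM in Control and 172, 462, 212 and 165 CPM in treated mice. For club cells 0 of 4 were higher, and for alveolar type 2 cells 0 of 5. Red blood cell markers had a median log2 fold change of 2.50, with sums of 58.0 to 264 CPM in Control and 205 to 1586 CPM in treated mice. For adipocyte markers the median was 1.87, with sums of 8.70 to 85.4 and 35.9 to 207 CPM. Cardiomyocyte markers had a median of 0.80, with sums of 78.7 to 536 and 332 to 886 CPM. These groups overlapped, and their part in the protease and inhibitor values was not tested. B cell markers summed to 220, 134, 142 and 82.2 CPM in Control and to 398, 202, 426 and 318 CPM in treated mice, and the groups overlapped through treated mouse 2. The 5 cartilage markers, of which 1 passed the filter on low counts, summed to 0.293 to 0.777 CPM in Control and to 0.778 to 3.32 CPM in treated mice. The groups thus touched almost at 0.777 and 0.778 CPM, at levels too low to tell them apart. Of all single genes tested, 1.53% had separate and higher treated values.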
